A study of Mus musculus with 4 samples.

Results

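Ptprz1 and 9 related receptor-type protein tyrosine phosphatase genes were examined for binding of their RNA by DHX9, a helicase that opens paired stretches of RNA. The 10 genes were Ptprz1 and Ptprg (subtype R5), Ptprd, Ptprs and Ptprf (subtype R2A, also called the LAR type), Ptprk, Ptprm and Ptprt (subtype R2B), and Ptpra and Ptpre (subtype R4). A DHX9 peak was assigned to a gene when its midpoint lay within the gene's RefSeq span on the mouse build mm10. This gave 167 peaks of the 43106 in the deposited list (0.387%). The genes were picked by name and family, with earlier results of these data known, so their share with a peak is a description of these genes only.

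The peaks come from neural progenitor cells grown from WT26, a male mouse embryonic stem cell line of C57BL/6x129sV background, by 7 days as a monolayer and 72 hours as embryoid bodies, then kept in medium with EGF and FGF2 at 10 ng/ml each. All libraries came from cells given ultraviolet light at a labelled dose of 0.15 mJ/cm2. The 2 libraries made with a rabbit antibody to DHX9 were set against 2 made with rabbit IgG, which pulls down background RNA, and each group held biological replicates A and B of the same unmodified cell line. The assay was FLASH, in which ultraviolet light crosslinks protein to RNA and the RNA recovered with the protein is sequenced with its strand. A single list of peaks came from the 4 libraries together. It holds no value per library, so neither replicate error nor read depth is known, and every number below is a description of that list without a test.

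A gene without a peak had none called, which measures neither its expression nor the absence of binding. Peak counts cannot tell more binding from more RNA of that gene. Of 15 neural progenitor markers, 7 held a peak, among them the glutamate transporter gene Slc1a3 with 122, while Sox2, Pax6 and Nes had 0. At least 3 peaks lay in 3 of the 15, and Vim, Cdh2 and Prom1 held 1 each. A peak was also present in 1 of 10 neuron markers (Map2, 46 peaks) and 0 of 10 pluripotency markers. The astrocyte and oligodendrocyte markers had one in 2 of 10 (Cnp with 8, all shared with another annotated gene, and Pdgfra with 1). The mesoderm, endoderm and fibroblast markers had one in 3 of 10. These were the collagen genes Col3a1 (28 peaks), Col1a1 (7) and Col1a2 (2), and the other 7 of that list had none. Of all protein-coding genes, 18.9% had one. The part of other cell types in the results was not tested.

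Receptor tyrosine phosphatases are membrane-spanning enzymes that remove phosphate from tyrosine residues inside the cell, opposing tyrosine kinases. The R5 pair carries a carbonic anhydrase-like domain on the outside. Ptprz1 also bears chondroitin sulfate chains, marks neural progenitors, glia and their precursors in the brain, and is inhibited by its ligand pleiotrophin. LAR-type members organise synapses and respond to proteoglycans, R2B members bind to copies of themselves on neighbouring cells, and R4 members have short outer parts and act on Src family kinases.

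The distance of the first peak from an annotated start is given below for the 4 members with the most peaks, so the 250 bases upstream of the first annotated start of each are shown, 5′ to 3′ on the gene's strand, from RefSeq (GRCm38.p6, the assembly of mm10). Capitals mark the GC box GGGCGG or its complement CCGCCC.
Ptprz1, chr6:22875252-22875501, plus strand: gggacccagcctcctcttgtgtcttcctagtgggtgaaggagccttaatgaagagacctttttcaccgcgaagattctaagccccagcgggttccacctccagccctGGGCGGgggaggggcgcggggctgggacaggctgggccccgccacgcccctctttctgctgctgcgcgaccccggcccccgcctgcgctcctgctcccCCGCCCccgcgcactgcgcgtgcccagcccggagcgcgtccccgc
Ptprg, chr14:11553303-11553552, plus strand: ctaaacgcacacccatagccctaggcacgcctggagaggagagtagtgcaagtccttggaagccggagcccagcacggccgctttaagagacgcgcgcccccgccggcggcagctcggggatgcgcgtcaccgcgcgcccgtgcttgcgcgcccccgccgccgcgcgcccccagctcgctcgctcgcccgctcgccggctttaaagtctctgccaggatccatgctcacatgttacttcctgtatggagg
Ptprs, chr17:56476481-56476730, minus strand: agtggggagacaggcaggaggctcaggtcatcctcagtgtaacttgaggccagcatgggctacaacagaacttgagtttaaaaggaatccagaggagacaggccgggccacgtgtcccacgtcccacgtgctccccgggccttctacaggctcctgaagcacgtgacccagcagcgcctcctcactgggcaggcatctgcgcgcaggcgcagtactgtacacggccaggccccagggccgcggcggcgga
Ptpra, chr2:130450028-130450277, plus strand: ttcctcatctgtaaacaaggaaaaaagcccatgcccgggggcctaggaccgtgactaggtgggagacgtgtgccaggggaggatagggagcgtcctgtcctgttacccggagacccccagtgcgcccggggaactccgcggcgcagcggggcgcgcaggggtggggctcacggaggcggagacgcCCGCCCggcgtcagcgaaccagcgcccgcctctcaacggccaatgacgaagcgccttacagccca
No peak overlapped any of these windows, nor the first 50 bases after the start. The windows lie upstream of the annotated start, so this says little about binding of the RNA of these genes. The share of all RefSeq windows that a peak overlapped is not given here. The Ptprz1 window held 2 GC boxes, the Ptpra window 1, and the Ptprg and Ptprs windows 0, while the window of a second Ptprs start held 3 and that of a second Ptprg start 0. Of 32851 RefSeq windows of the same length, 32.7% held at least 1 on either strand. The annotated span of Ptprz1 began 187 bases before the start used here, that of Ptprg 113 bases and that of Ptprs 81 bases before it. Positions along a gene, in kb or percent, are counted from the 5′ end of the span. A start was listed for 9 of the 10 genes. Ptprd is named without one.

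Peaks were spread very unevenly over the 10 genes, called the family in these counts. A peak was present in 7 of the 10 genes (70%), where 18.9% of 21900 protein-coding genes had one. Only 1 of 10 other receptor-type phosphatase genes had a peak (10%). The 70% therefore describes these members, not receptor phosphatases at large. Receptor phosphatase genes are long, and among the 3912 protein-coding genes whose span was at least that of Ptprs, the shortest member, 38.1% had a peak. Ptprz1 held 64, Ptprg 44, Ptprs 30 and Ptpra 19, together 157 of the 167 (94%). Ptprm held 5, Ptprf 3 and Ptprd 2. Ptprk, Ptprt and Ptpre held 0. Over all members the median was 4 peaks, and over all protein-coding genes it was 0.

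At least 10 peaks lay in 4 of the 10 members (40%), where 4.83% of all protein-coding genes and 13.5% of those at least as long as Ptprs had that many. As many peaks as in Ptprz1 were found in 0.425% of protein-coding genes, which placed it 90th by count. Ptprg was 157th, Ptprs 272nd and Ptpra 505th. Span did not order the members: Ptprd, by far the longest at 2270.5 kb, held 2 peaks, and Ptprt, at 1139.2 kb, held 0, while Ptprs held 30 in 64.1 kb.

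**Figure D1:**
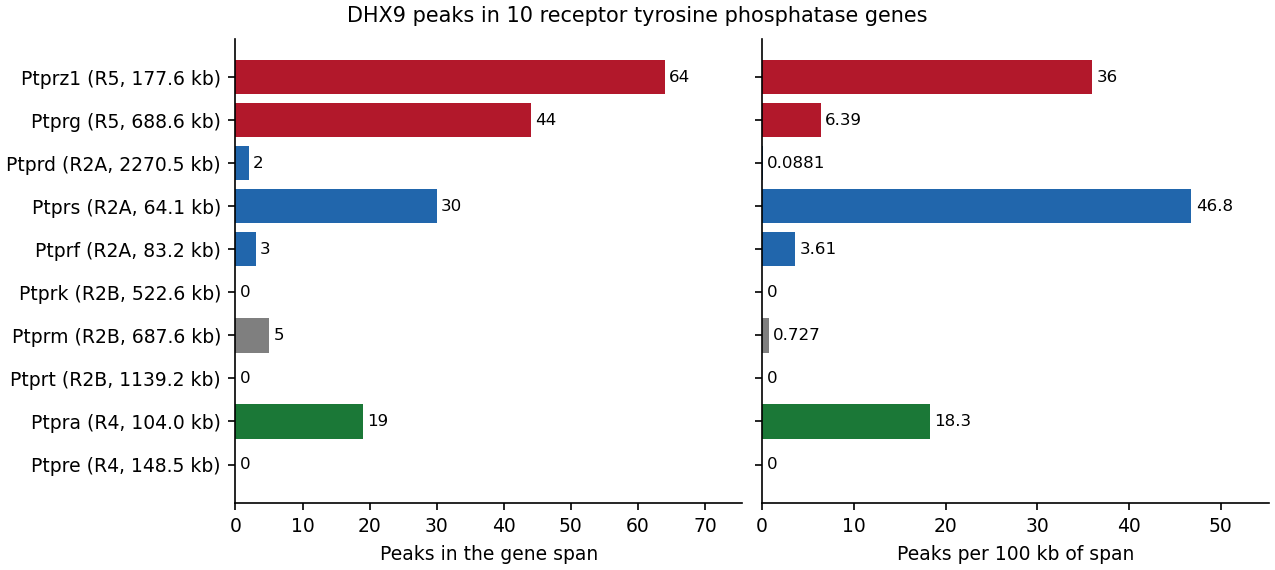
Number of DHX9 peaks in each gene span (left) and peaks per 100 kb of span (right) for the 10 genes, coloured by subtype, with the span in kb beside each name. Bars start at 0 and carry no error, since the list joins all libraries. Ptprz1 leads by count with 64 and Ptprs by density with 46.8 per 100 kb.

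Per length the order changed. Ptprs was the densest member with 46.8 peaks per 100 kb of span, followed by Ptprz1 with 36.0, Ptpra with 18.3, Ptprg with 6.39, Ptprf with 3.61, Ptprm with 0.727 and Ptprd with 0.0881. Summed over the family, 2.84 peaks fell on each 100 kb, against 4 per 100 kb over all protein-coding spans. Among the 1057 protein-coding genes with at least 10 peaks, the median density was 36.5 per 100 kb, so Ptprz1 lay at the middle of that set, with 50.4% of those genes as dense or denser. The same share was 40.1% for Ptprs, 73.1% for Ptpra and 93.5% for Ptprg. These shares are not matched for span: 528 of the 1057 genes were at least as long as Ptprs. A short gene with at least 10 peaks is dense by that alone, while a long one need not be. Density among genes of similar span is not given here. Peaks covered 8.32% of the bases of Ptprs and 6.21% of those of Ptprz1, but 2.77% of Ptpra and 1.04% of Ptprg.

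**Figure D2:**
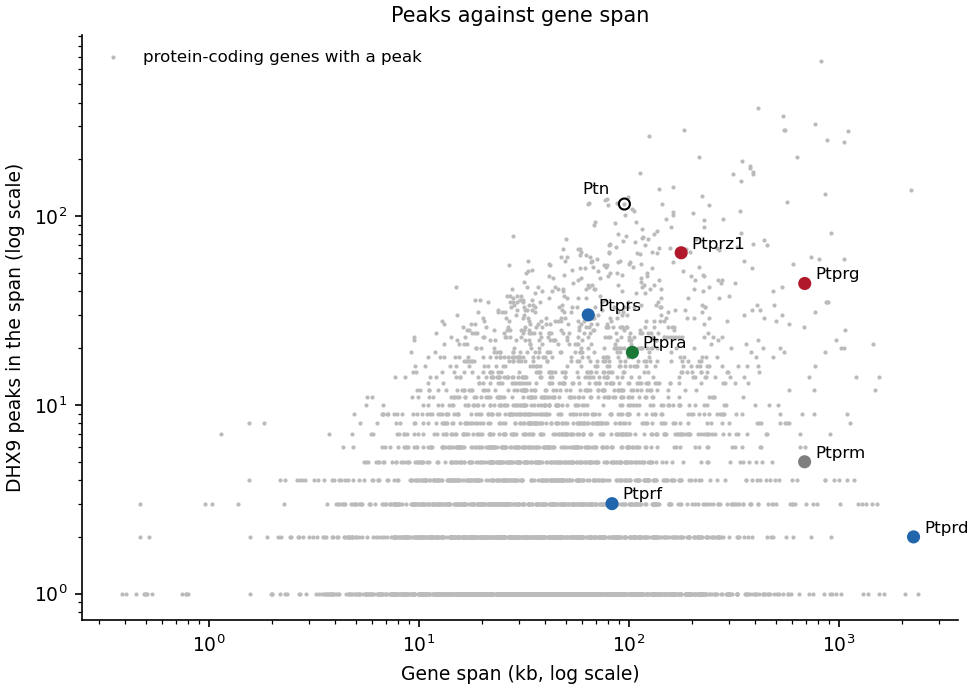
Peaks in the span against gene span, both on log scales, for the protein-coding genes with a peak (grey), the 7 phosphatase genes with a peak (coloured by subtype as in the bar plot) and Ptn, the gene of the Ptprz1 ligand pleiotrophin (open circle). Ptprz1, Ptprg, Ptprs and Ptpra hold 19 or more peaks, and Ptprm, Ptprf and Ptprd 5 or fewer, over spans that differ widely.

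The R5 pair held 108 peaks (64.7% of those in the family), the LAR type 35 (21%), the R4 pair 19 (11.4%) and the R2B type 5 (2.99%). Within each subtype 1 gene carried most of them. Ptprz1 was denser than its paralog Ptprg by 36.0 to 6.39 peaks per 100 kb, in a span of 177.6 kb against 688.6 kb. Among the LAR-type genes, Ptprs held 30 peaks and its paralogs Ptprf and Ptprd 3 and 2, although Ptprf is of similar span (83.2 kb). Of the R4 pair, Ptpra held all 19 and Ptpre 0. The R2B genes, which span 522.6 kb (Ptprk), 687.6 kb (Ptprm) and 1139.2 kb (Ptprt), had peaks in Ptprm alone. How strongly each paralog is expressed in these cells was not measured.

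Ptprz1 (chromosome 6, 22875315 to 23052916) carried all its 64 peaks on the plus strand, the annotated strand of the gene. The first ran from 22875693 to 22875815, and its near edge lay 191 bases after the annotated start. The last lay 198 bases before the end of the span. Between these, the peaks fell into blocks separated by long empty stretches. A run was defined as peaks whose neighbouring midpoints lie within 1 kb of each other, and Ptprz1 had 10 runs holding 54 of its peaks (84.4%).

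Both of its longest runs held 12 peaks. One covered 4.2 kb from 57.3 to 61.5 kb into the span (midpoints 22932631 to 22936834), with a median distance between neighbours of 407 bases. The other covered 4.9 kb from 128.3 to 133.2 kb (23003612 to 23008512), with a median of 387 bases. A run of 8 peaks from 124.0 to 127.1 kb preceded that block, and a run of 7 lay between 103.0 and 106.1 kb. By position, the stretch from 70 to 80% of the span held 20 peaks (31.2%) and that from 30 to 40% held 13 (20.3%), while that from 80 to 90% held 0. Across protein-coding genes at least as long as Ptprs, these stretches held 6.74%, 10.1% and 5.68%. Those values count only peaks on the gene's strand in no other gene, while the Ptprz1 shares are of all its 64 peaks. The longest stretch without a peak, 42.9 kb, lay between a lone peak at 134.551 kb, past the last block, and the peak at the 3′ end.

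**Figure D3:**
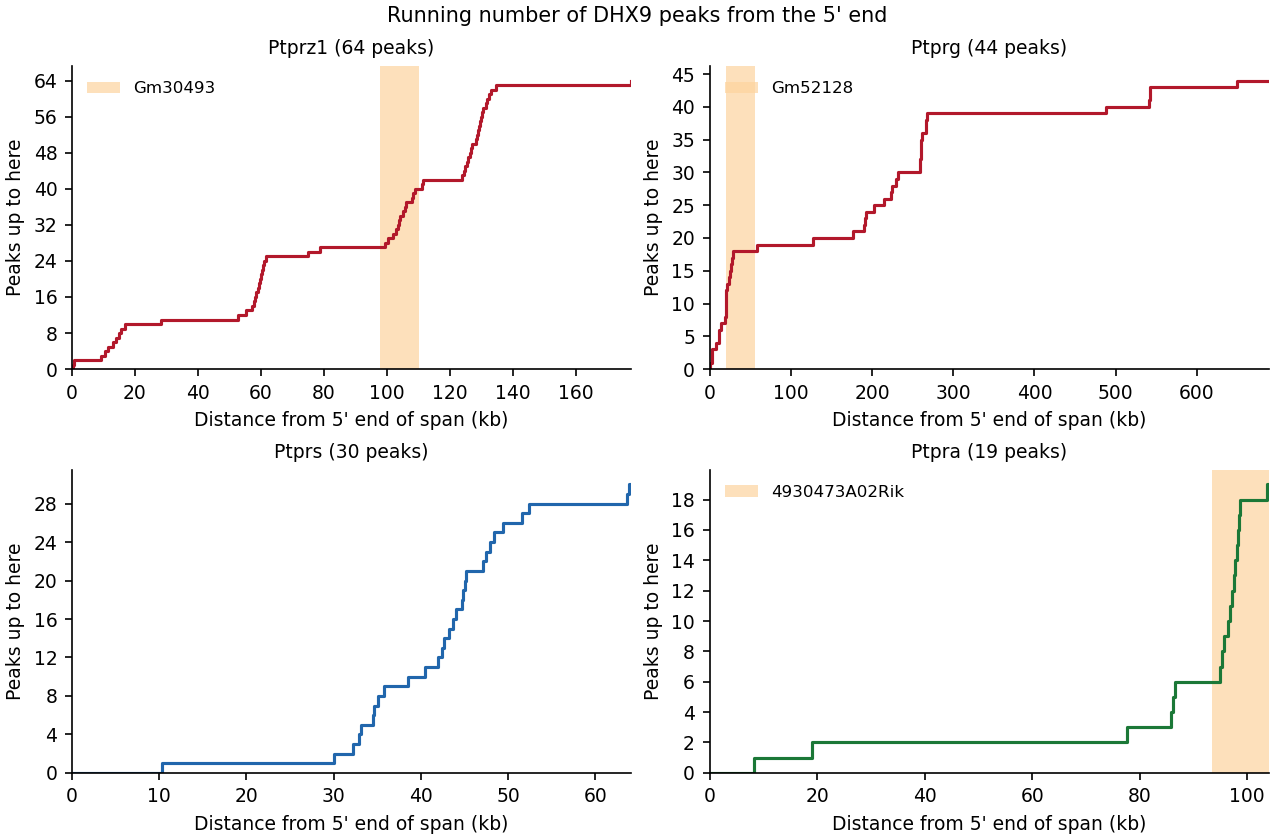
Running number of peaks from the 5′ end of the span, in kb, for the 4 genes with the most peaks. Steep parts are dense blocks and flat parts are stretches without a peak. Shading marks overlapping noncoding genes that contain peaks. Ptprz1 rises in separate blocks, Ptprg mostly in the first 40% of its span, Ptprs mostly between 32.3 and 52.4 kb, and Ptpra near the 3′ end.

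Ptprg (chromosome 14, 11553440 to 12242041), the other R5 gene, had 44 peaks, all on its annotated plus strand. Like Ptprz1 it had a peak right after the annotated start, from 11553673 to 11553845, with its near edge 120 bases downstream. A peak midpoint within 500 bases after an annotated start was found in 15% of the 840 protein-coding genes with at least 10 peaks and a listed strand. The first 10% of the Ptprg span held 19 peaks (43.2%) and the stretch from 30 to 40% held 14 (31.8%). Across protein-coding genes at least as long as Ptprs, these stretches held 17.8% and 10.1% of the peaks on the gene's strand in no other gene. In the first 10% of Ptprg, 10 peaks also lay within Gm52128, a noncoding gene without a listed strand, and could come from either gene. Without them the first 10% held fewer peaks than the stretch from 30 to 40%. The first 50% of the span held 39 of 44 (88.6%), the 10 shared peaks among them. That part held 65.8% of the unshared peaks on the gene's strand in protein-coding genes at least as long as Ptprs. The 88.6% thus counts shared peaks and the 65.8% does not. A second annotated start lies at 12189943, and 1 peak lay downstream of it. The longest stretch without a peak measured 220.9 kb. With only peaks of at least 153 bases, the median of the list, the median position moved to 6.2% of the span, against 27.7% with all its peaks.

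Ptprs (chromosome 17, 56412426 to 56476561) had 30 peaks on its annotated minus strand and none on the other, none of them shared with another annotated gene. Its peaks lay mostly in the 3′ part: 28 of 30 (93.3%) were in the last 50% of the span, against 34.2% of such peaks in protein-coding genes of at least this span. The first peak after the upstream start began 10206 bases downstream of it. All but 1 peak also lay downstream of the second listed start, at 56462221. The longest run held 10 peaks in 3.22 kb (56431399 to 56434622). A closing pair of peaks lay at the 3′ end, the last of them 287 bases before the end of the span. Its peaks ran from 73 to 486 bases, and the longest of the family was among them.

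Ptpra (chromosome 2, 130450278 to 130554300) had 19 plus-strand peaks, of which 13 (68.4%) lay in the last 10% of the span. Across protein-coding genes at least as long as Ptprs, that part held 5.75% of the peaks on the gene's strand in no other gene. The 68.4% counts shared peaks and the 5.75% does not. In this part of Ptpra, a run of 12 peaks covered 3.71 kb (130545277 to 130548984), with a median distance of 292 bases between neighbours. This block lies within 4930473A02Rik, a noncoding gene annotated on the minus strand, and 6 of the 19 peaks lay in no other gene. All 19 were on the strand of Ptpra. Its first peak began 8115 bases after the annotated start. Its last peak was 435 bases from the end of the span. A peak within 500 bases of the 3′ end, as in Ptprz1, Ptprs and Ptpra, was present in 7.26% of the 840 protein-coding genes with at least 10 peaks and a listed strand.

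**Figure D4:**
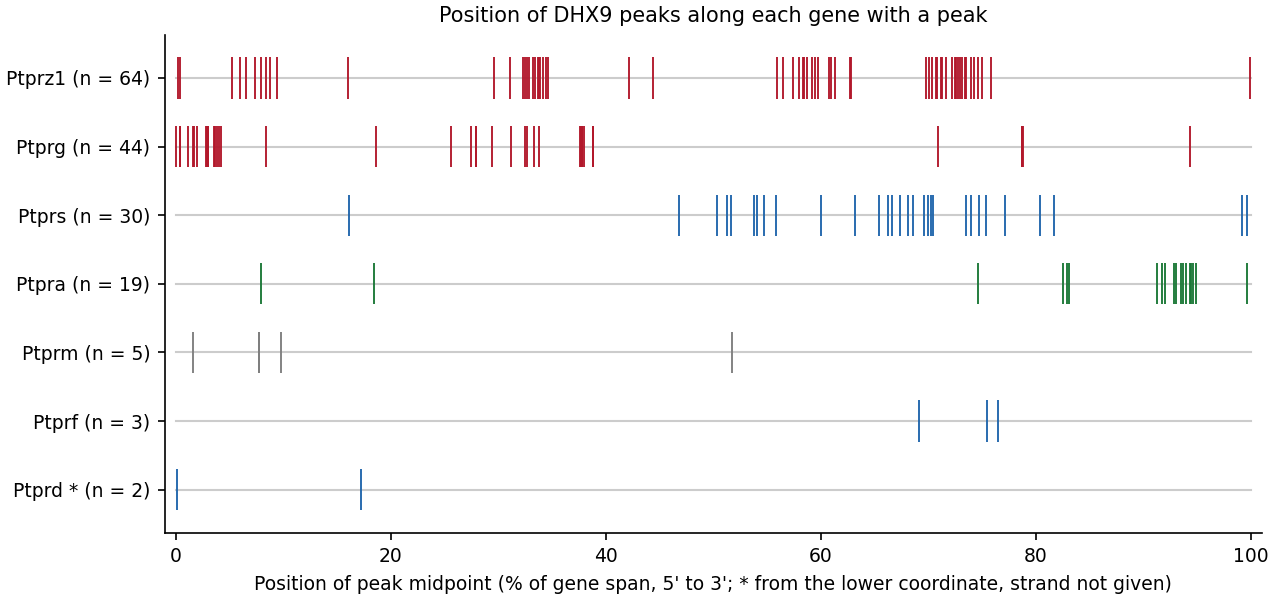
Position of every peak midpoint as a percentage of the gene span, 5′ to 3′, for the 7 genes with a peak, ordered by number of peaks. Each stroke is 1 peak. Ptprd is drawn from its lower coordinate because its strand was not listed. Peaks of Ptprg lie mostly in the first 40%, those of Ptprs and Ptpra mostly in the last 50%, and those of Ptprz1 in separate blocks.

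The sparse members placed their few peaks differently. Of the 5 minus-strand peaks of Ptprm (chromosome 17, 66666848 to 67354491), 4 lay in the first 10% of the gene and 1 at 51.7% of the span. The 3 minus-strand peaks of Ptprf (chromosome 4, 118208213 to 118291405) lay between 69.1% and 76.5%. Both peaks of Ptprd (chromosome 4, 75941237 to 78211742) were on the minus strand, at 0.1% and 17.2% of the span counted from the lower coordinate, and 388.2 kb apart. The spans without a peak were those of Ptprk (chromosome 10, 28074820 to 28597397), Ptprt (chromosome 2, 161521988 to 162661147) and Ptpre (chromosome 7, 135537824 to 135686294).

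Among the 4 members with the most peaks, neighbouring peaks lay closest together in Ptpra and farthest apart in Ptprg. The median distance between neighbouring midpoints was 364 bases in Ptpra, 525 in Ptprs and 543 in Ptprz1, and 1363 in Ptprg. Across protein-coding genes with at least 10 peaks, the middle value of this median was 494 bases, with quartiles of 386 and 734. Ptprg therefore lay above the upper quartile and Ptpra below the lower one. Runs held 83.3% of the peaks of Ptprs, 78.9% of those of Ptpra and 61.4% of those of Ptprg, against a median of 86.5% (quartiles 75 and 93.8%) in protein-coding genes with at least 10 peaks. Over the family, 125 of the 167 peaks (74.9%) lay in runs.

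**Figure D5:**
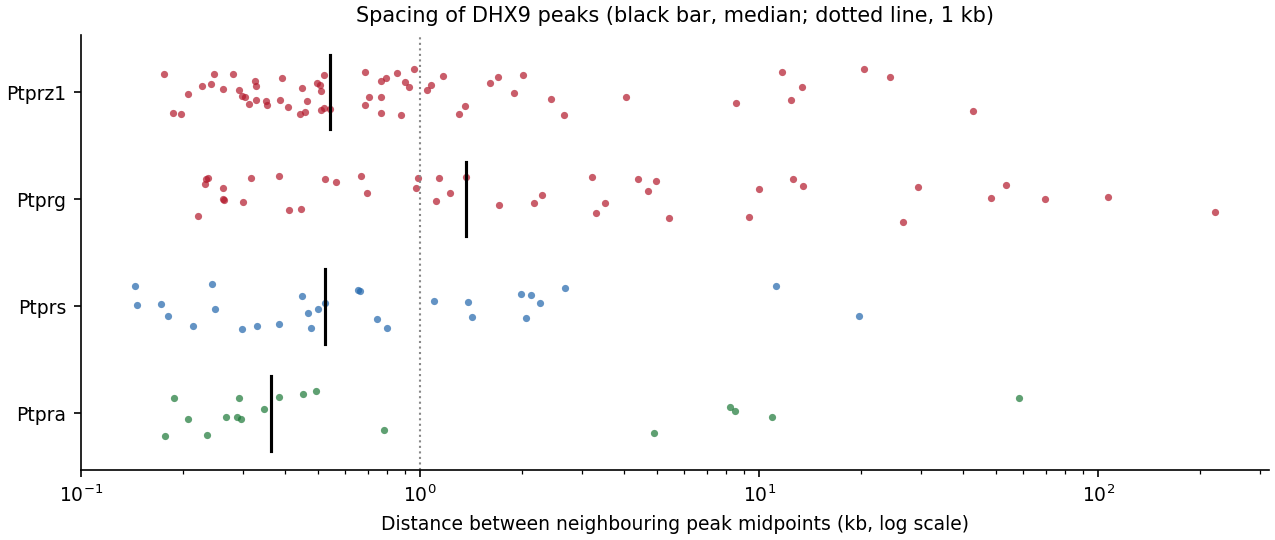
Distance between neighbouring peak midpoints in kb, on a log scale, for the 4 genes with the most peaks. Each point is 1 distance, black bars are medians (0.543 kb in Ptprz1, 1.363 kb in Ptprg, 0.525 kb in Ptprs, 0.364 kb in Ptpra), the dotted line is the 1 kb used to define a run, and vertical scatter within a gene has no meaning.

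In length the phosphatase peaks were like the rest of the list, with a median of 153 bases, the same as over all 43106 peaks. Their lengths ran from 73 to 486 bases, and those of the whole list from 16 to 981. By gene the median was 172 bases in Ptprs, 157 in Ptprz1, 149 in Ptprg and 142 in Ptpra.

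All 165 peaks in the 6 members with a listed strand lay on the strand of the phosphatase gene. Over the 30403 peaks that lay in 1 protein-coding gene of listed strand and in no other gene, 99.5% did. The strand separates members from some of the noncoding genes that overlap them. Gm30493, within Ptprz1, is annotated on the minus strand, and its span held 13 Ptprz1 peaks, all on the plus strand. The 13 peaks within 4930473A02Rik were likewise on the strand opposite to that gene. For Gm52128, whose span held 10 plus-strand peaks of Ptprg, and Gm52313, which held 1 minus-strand peak of Ptprm, no strand was listed, so those peaks could come from either gene. In all, 130 of the 167 peaks lay in no other annotated gene, among them 51 of the 64 in Ptprz1 and 34 of the 44 in Ptprg. Neither exons nor introns were annotated in the sources used here.

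DHX9 binds paired RNA, and 4 microRNA hairpins lie within members, each on the strand of its host: Mir6977 in Ptprs, Mir7226 in Ptprf, Mir5709 in Ptprm and Mir1962 in Ptpre. None was under a peak of its host. Ptpre held no peak, and peaks covered 8.32% of the bases of Ptprs, 0.817% of Ptprf and 0.0967% of Ptprm. So little covered sequence left little room for an overlap, and whether DHX9 binds these hairpins was not tested. Mir6977 is the only one in a member with many peaks, and its nearest peak lay 5.17 kb away. Its mature sequences are given with the seed, bases 2 to 8, in capitals, from RefSeq (GRCm38.p6).
mmu-miR-6977-5p, chr17:56418885-56418909, minus strand: gUGAGGCGcugugggcacggcuugg
mmu-miR-6977-3p, chr17:56418850-56418871, minus strand: aAGGCGUUgccugacccugacc

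By span and peak count together, the protein-coding genes most like Ptprz1 among those with at least 10 peaks were Sptbn1 (66 peaks in 169 kb), Usp34 (67 in 187.4 kb), Fyn (65 in 195.6 kb), Mllt10 (68 in 157.2 kb) and Egfr (57 in 161.7 kb). The distance in log2 span and log2 peak count was 0.084 for Sptbn1 and 0.215 for Egfr, the last of the 5. Fyn encodes a Src family kinase and Egfr the EGF receptor. Of the 57 peaks of Egfr, 13 also lay in another annotated gene.

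The other tyrosine phosphatase genes and the partners of these receptors were described from lists. Each share below can be read against the 18.9% of all protein-coding genes and the 38.1% of those at least as long as Ptprs that had a peak. Of 10 other receptor-type phosphatase genes matched, 1 held a peak (10%): Ptprj with 1. None of the other 9, among them Ptpro and Ptpru, had one. The non-receptor phosphatase genes had a peak in 8 of 17 (47.1%), with 54 in Ptpn9, 33 in Ptpn12, 12 in Ptpn4 and 8 in Ptpn11, which encodes SHP2. Each of these lists had a median of 0 peaks per gene, as had all protein-coding genes.

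Ligands and binding partners of the R5 receptors had a peak in 5 of 13 genes (38.5%, median 0), about the share of long protein-coding genes. Ptn, which encodes pleiotrophin, held 116 peaks in 95.3 kb (chromosome 6, 36714924 to 36810179), or 122 per 100 kb, none shared with another gene. It exceeded its receptor gene Ptprz1 in both count and density. Mdk, the gene of the related ligand midkine, held 0 in its span of 2.5 kb. The extracellular matrix gene Tnc held 24, all shared with another annotated gene. The adhesion genes Cntn3 and Ncam1 held 18 and 15, of which 10 and 12 lay in no other annotated gene. Substrates and intracellular partners of Ptprz1 had a peak in 7 of 10 genes (70%, median 4.5), against 18.9% of all and 38.1% of long protein-coding genes. Fyn held 65, the postsynaptic scaffold gene Dlg4 20, and Magi3 and Pxn 6 each.

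Ligands and synaptic partners of the LAR type had a peak in 6 of 16 genes (37.5%, median 0). They were led by the proteoglycan genes Gpc6 (20) and Agrn (12), with 3 in Sdc3 and 2 in Lrrc4b. Of all protein-coding genes 18.9% had one, and of those at least as long as Ptprs 38.1%. The list mixes long genes with short ones such as Slitrk1 (4.3 kb) and Lrfn4 (3.9 kb), so neither share matches it in span. The intracellular partners of the LAR type had one in 3 of 10 (30%, median 0): Trio with 28, Ank2 with 27 and Ppfia1, which encodes a liprin, with 3. Of 9 chondroitin sulfate proteoglycan genes, the class to which Ptprz1 belongs, 4 had a peak (44.4%, median 0): Vcan with 29, Ncan with 18, Bcan with 11 and Cspg5 with 1. Tnr, which stands in this list and among the ligands, held 0.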

How the data were processed

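Per the file itself, the authors deposited 1 list of peak regions for the series, made with PEAKachu, with a chromosome, first base, last base and strand for each peak and an empty score column. The submitters' processing notes list the aligner Bowtie2 2.2.6 with hg19 and mm10 as builds. The caller's settings and threshold, and how multiply mapping reads were treated, are not given in the sources used here. Depth is therefore unknown. No column per sample was present.

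Peaks were read as 1-based mm10 positions. Gene spans came from a RefSeq table of GRCm38.p6 (49980 genes with a chromosome), and gene strand and starts from RefSeq promoter windows. A peak counted for every gene whose span held its midpoint. Libraries were grouped by their titles. The counting was tested on simulated peaks (Python 3.11.15, pandas 2.3.3).

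All 10 members were named, with up to 4 genes with the most peaks of each partner list and the 5 genes nearest to Ptprz1. A gene taken by the rule is not reported here. Outside the rule, Mdk, Tnr, Ptpro, Ptpru and the named cell type markers were chosen after their values were seen. Members and lists were chosen with earlier results of these data known. Alternatives were longer peaks, peaks merged if 50 bases or less apart, assignment by an overlap of 1 base or more, peaks in no other gene, the majority strand, run distances of 500 bases and 2 kb, and at least 3 peaks per listed gene.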

Additional observations from a re-analysis of the deposited data

How the results depend on the processing

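No paired analysis was possible because 1 list joins the libraries, and for the same reason no replicate could be left out. Keeping only peaks of at least 153 bases left 21796 of the 43106, by construction, and 85 of the 167 in the family (0.0144 peaks per kb, against 0.0284 with all its peaks). The same 7 members had a peak in each setting run. The order Ptprz1, Ptprg, Ptprs, Ptpra by count held with the longer peaks (35, 20, 18 and 8). Counting only peaks in no other gene left 6 in Ptpra. The share of peaks in runs was 56.9% with a run distance of 500 bases and 81.4% with 2 kb, by construction. The median position in Ptprz1 stayed between 58 and 58.3% of the span. Genes with a peak in the 7 lists of other phosphatases, partners and proteoglycans numbered 34, then 27 with longer peaks and 24 with at least 3 peaks.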

Other observations

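Beyond the annotated 3′ end of Ptprs, 2 further peaks lay on the same minus strand in no annotated gene, at 56409983 to 56410199 (2.34 kb past the end) and 56409511 to 56409652 (2.84 kb past it). No other member with a peak had one within 10 kb of either end of its span. The peak nearest to Ptpre, 8.83 kb past its end and on the opposite strand, lay in Mki67, a proliferation marker gene.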
